A study of Bos grunniens with 6 samples.

Results

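Genes of the piRNA pathway and related germline RNA regulators were examined for m6A, the methyl mark on adenosines of RNA, and for expression in the testis of the sterile cattle-yak, the hybrid of cattle and yak. They were chosen as the genes whose symbol in the m6A peak list is *PIWIL1* to *PIWIL4*, *TDRD* followed by a number, *TDRKH*, *MAEL*, *MOV10L1*, *DDX4*, *DAZL*, *BOLL*, *ASZ1*, *PLD6* or *HENMT1*. The rule found 25 of the 16186 listed peaks, on 12 of the 8986 gene identifiers with a peak. These 12 identifiers carry 10 symbols, since *HENMT1* and *TDRD3* are each carried by 2 of them.

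PIWI-interacting RNAs (piRNAs) are small RNAs of the germline that guide PIWI proteins to transposon transcripts and silence them. Their precursors are cut at the surface of mitochondria, trimmed, methylated at their last nucleotide and loaded onto PIWI proteins, and Tudor domain proteins hold these proteins together in cytoplasmic granules by binding their methylated arginines. Loss of many of these factors in the mouse stops spermatogenesis in meiosis or in spermatids.

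The libraries came from pieces of testis tissue of 3 cattle-yaks aged 5 years, named TES5, TES6 and TES7, obtained by castration. Each animal gave 1 library of RNA pulled down with an antibody against m6A (IP) and 1 of the RNA before the pull-down (input), 6 libraries in all. The reads of these hybrids were aligned to the yak genome alone. Peaks are stretches where IP reads exceed those of the input. They stand in 1 list for the group, with no score and no value per animal, so no spread between animals can be given for a peak. All animals were of 1 condition, and no comparison between conditions was made.

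By the rule, every gene described here has a peak. Of the 22 protein coding symbols of the yak RefSeq table that meet the rule, 10 (45.5%) were carried by a listed peak, against 45.2% of all 16457 named protein coding symbols, so the share is near the background. Symbols were matched by name only, and the 10 include *PLD6*, whose only identifier has listed terms that go against that symbol. The symbols without a listed peak were *BOLL*, *DAZL*, *DDX4*, *MAEL*, *MOV10L1*, *PIWIL1*, *PIWIL3*, *PIWIL4*, *TDRD10*, *TDRD12*, *TDRD15* and *TDRKH*. Among them are *DDX4*, the germ cell helicase known as VASA, and *PIWIL1*, the PIWI protein of pachytene spermatocytes. Their expression was not analysed here, because the expression values are listed by identifier and symbols were taken from the peak list. A gene may also be missing because its peak has no symbol, as for 384 peaks on 211 identifiers.

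The 12 identifiers lay on 9 chromosomes of the yak genome LU_Bosgru_v3.0, and 0 of their peaks were on X or Y. Of the 25 peaks, 18 (72%, Wilson 95% interval 52.4% to 85.7%) were in the exon class, 6 (24%, 11.5% to 43.4%) in the 3' UTR class and 1 (4%, 0.710% to 19.5%) in the 5' UTR class. Over all listed peaks these shares were 70.3%, 20.8% and 8.82%, each inside the interval of the 25. The exon class names an exon without saying whether it is coding. Intervals for shares allow for counting error alone, and peaks of 1 gene are not independent.

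**Figure D1:**
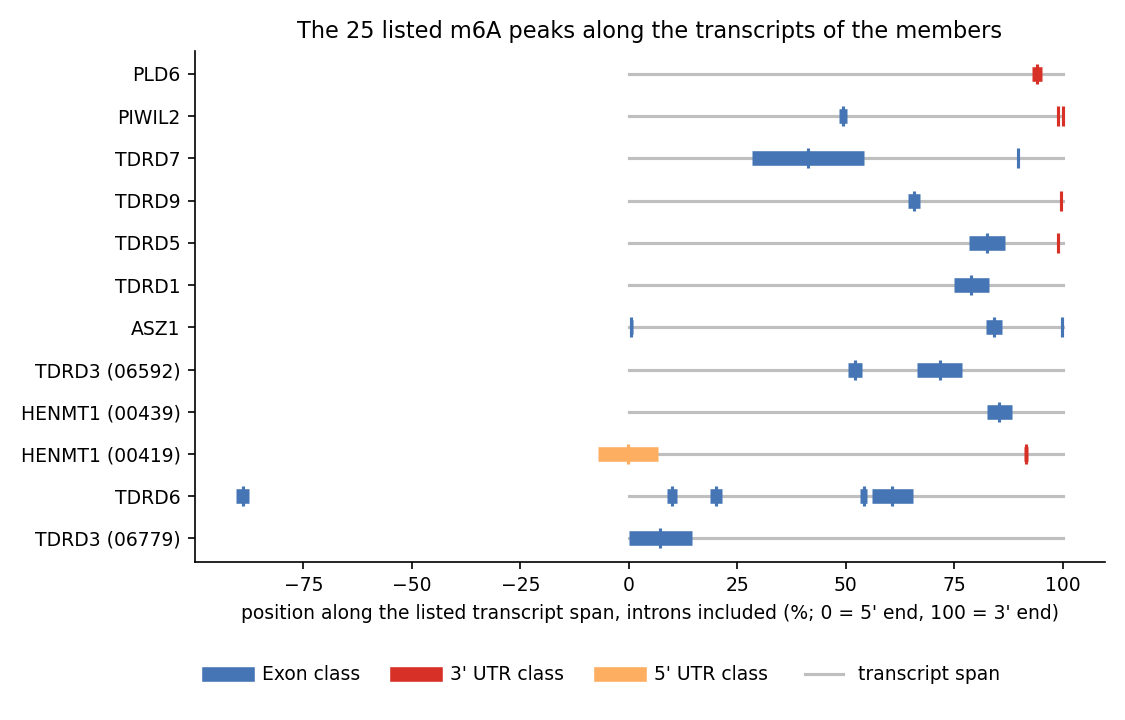
Each row is 1 gene identifier, ordered by mean FPKM from the highest at the top, and the grey line is the listed transcript from the 5' end (0%) to the 3' end (100%), introns included. Each peak is scaled to the transcript listed with it, and for *PIWIL2*, *TDRD9* and *TDRD6* these transcripts differ in span between peaks. Coloured blocks are the 25 peaks by class, with a tick at the midpoint; 6 identifiers have a narrow peak in the last 10%, and 1 *TDRD6* peak lies before the transcript.

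*PIWIL2* encodes a PIWI protein that binds piRNAs in spermatogonia and spermatocytes. Its identifier ENSBGRG00000010031 carried 3 peaks and is transcribed from the plus strand of chromosome 7, with listed transcripts at chr7:4456300-4544483 and chr7:4456300-4545866. The peak at chr7:4499032-4500616 covered 1585 bp and was annotated to exon 11 of 22, with its midpoint at 49.4% of the span of the transcript. Both remaining peaks belonged to the 3' UTR class and lay 99 bp apart. One, at chr7:4544368-4544617 (250 bp), ran 134 bp past the end of the shorter transcript. Its neighbour at chr7:4544717-4544867 (151 bp) was listed with the longer transcript, 999 bp before its end.

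*PLD6* encodes the nuclease of the outer mitochondrial membrane that makes the 5' ends of piRNAs. The identifier with this symbol, ENSBGRG00000012604, spans chr19:32162539-32177247 on the minus strand. Its single peak, at chr19:32163238-32163587 (350 bp), belonged to the 3' UTR class and ended 699 bp short of the 3' end of the transcript. The ontology terms listed for the identifier name TOR signaling and energy homeostasis, and no germline term is among them. In the RefSeq table of another yak assembly, the neighbours of *PLD6* are *MPRIP* and *FLCN*, the latter encoding folliculin, a regulator of TOR signaling. On that assembly *PLD6* is 3267 bp long, while the identifier here spans 14709 bp. *FLCN* carries no listed peak. Which gene the peak and the expression of this identifier belong to was not tested.

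*HENMT1* encodes the methyltransferase that protects the last nucleotide of piRNAs. ENSBGRG00000000419 spans chr3:37593445-37638395 on the minus strand, with a 3' UTR class peak at chr3:37597018-37597464 (447 bp) and a 5' UTR class peak at chr3:37635422-37641552 (6131 bp). The latter ran 3157 bp past the start of the transcript. A second identifier with this symbol, ENSBGRG00000000439, overlaps the first head to head by 3023 bp, on the plus strand at chr3:37635373-37642983. All 6131 bp of the 5' UTR class peak fell inside its span and covered 80.6% of it. Only 98 bp further on, at chr3:37641651-37642095 (445 bp), a peak was annotated to its exon 7 of 7. The terms listed for ENSBGRG00000000439 are of RNA splicing, and *PRPF38B*, which encodes a splicing factor, is a RefSeq neighbour of *HENMT1*. Which gene this identifier stands for was not tested.

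*ASZ1* encodes a scaffold in the cement between mitochondria, where piRNAs are made. ENSBGRG00000003561 spans chr4:75788615-75866281 on the minus strand, and its 3 peaks were all in the exon class. Exon 1 of 13 held the peak at chr4:75865527-75866082 (556 bp), its midpoint at 0.614% of the span. At the opposite end, chr4:75788615-75788764 (150 bp) was a peak in exon 13 that stopped at the last base of the transcript. The widest *ASZ1* peak, chr4:75799435-75802334 (2900 bp), was annotated to exon 8.

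*TDRD1* and *TDRD9* encode Tudor proteins that act with PIWI proteins in the silencing of transposons, the latter with a helicase domain. The only *TDRD1* peak (ENSBGRG00000025091) lay at chr25:37563937-37567661 (3725 bp), in exon 19 of 25. *TDRD9* (ENSBGRG00000004595) combined a wide internal peak with a narrow one near its 3' end. The former, chr17:74328772-74332139 (3368 bp), was assigned to exon 24 of 36 of a transcript at chr17:74249062-74372765. The latter, chr17:74375859-74376109 (251 bp), belonged to the 3' UTR class and lay past the end of that transcript. It was listed with a longer one, chr17:74249062-74376459, 350 bp before its end.

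*TDRD5*, *TDRD6* and *TDRD7* encode Tudor proteins of the granules of spermatocytes and of the chromatoid body of spermatids. *TDRD5* (ENSBGRG00000009089) was arranged like *TDRD9*, with chr14:60177317-60184538 (7222 bp) in exon 13 of 18 and chr14:60194945-60195144 (200 bp) in the 3' UTR class, 844 bp before the transcript end. The *TDRD7* peak chr7:55573027-55594996 (ENSBGRG00000001363) was 21970 bp wide, 25.7% of the span of its transcript, and was assigned to exon 6 of 17. The other *TDRD7* peak, chr7:55542432-55542630 (199 bp), was in exon 15.

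*TDRD6* (ENSBGRG00000025033, minus strand, chr24:15171357-15180364) had the most peaks of the 12 identifiers, 5, all in the exon class and from 150 to 845 bp wide. Exon 1 of 6 held the pair at chr24:15179371-15179569 (199 bp) and chr24:15178427-15178675 (249 bp). Exon 3 held chr24:15174473-15175317 (845 bp) and, 98 bp away, chr24:15175416-15175565 (150 bp). The remaining peak, chr24:15187831-15188080 (250 bp), was 7467 bp before the start of the transcript, on an exon of transcript ENSBGRT00000046350, for which the list repeats the transcript name in place of a gene identifier. It is the 1 exon class peak of 18 whose exon is not listed under its own gene (5.56%), against 4.83% of all exon class peaks.

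*TDRD3* encodes a Tudor protein of many tissues that works with a topoisomerase and is not known as a piRNA factor. ENSBGRG00000006592 has the longest span of the group, chr15:83355511-83589237 on the plus strand, and its peaks were wide. They were chr15:83473326-83480841 (7516 bp), assigned to exon 4 of 12, and chr15:83510817-83535001 (24185 bp), assigned to exon 7 and the widest of the 25. The other identifier of this symbol, ENSBGRG00000006779, spans only 980 bp on the opposite strand, and its peak chr15:84547765-84547907 (143 bp) was in exon 1 of 2. Its listed terms include protein deubiquitination and proteasome assembly, which are not functions of *TDRD3*, and which gene it stands for was not tested.

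Of the 12 identifiers, 8 (66.7%, 39.1% to 86.2%) had 2 or more peaks, against 46% of all identifiers with a peak. In all, 4 had 1 peak, 5 had 2, 2 had 3 and 1 had 5. Without the 3 identifiers whose terms name RNA splicing, protein deubiquitination or TOR signaling (ENSBGRG00000000439, ENSBGRG00000006779 and that of *PLD6*), it was 8 of 9 (88.9%). A further 4 identifiers, those of *ASZ1*, *TDRD5*, *TDRD9* and *TDRD3* ENSBGRG00000006592, are listed with RNA-directed DNA polymerase activity, also not a function of their symbols, and without all 7 it was 4 of 5 (80%). Both reduced counts still include *HENMT1* ENSBGRG00000000419 with 2 peaks. Its 6131 bp peak lies inside the span of the removed ENSBGRG00000000439, so these shares may be too high. A peak in the 3' UTR class was found on 5 of the 12 (41.7%, against 32.1%), and a peak over 1000 bp on 8 (66.7%, against 61.7%). The listed transcripts of the members spanned 61940 bp in the median, against 27895 bp for genes with a peak, and the part of this in the number of peaks was not tested.

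Narrow peaks, those up to 1000 bp, were 16 of the 25 (64%, 44.5% to 79.8%), against 49.8% of all peaks, and the median width was 445 bp against 1022 bp. The share of the list lies inside this interval. *TDRD6* alone gave 5 of the 16, and without the 3 identifiers whose terms go against their symbol the share was 59.1% (13 of 22). Widths are spans on the genome, introns included. All 6 peaks in the 3' UTR class were narrow (100%, 61.0% to 100%), against 67.2% of peaks in that class over the whole list. Their widths ran from 151 to 447 bp, with a median of 250.5 bp. They made up 37.5% of the 16 narrow peaks (18.5% to 61.4%), against 28.1% over the list. Both shares of the list lie inside these intervals. Of the 9 peaks over 1000 bp, 8 were annotated to internal exons and 1 to the 5' UTR class. The midpoints of these 8 lay between 41.3% and 84.2% of the transcript span.

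**Figure D2:**
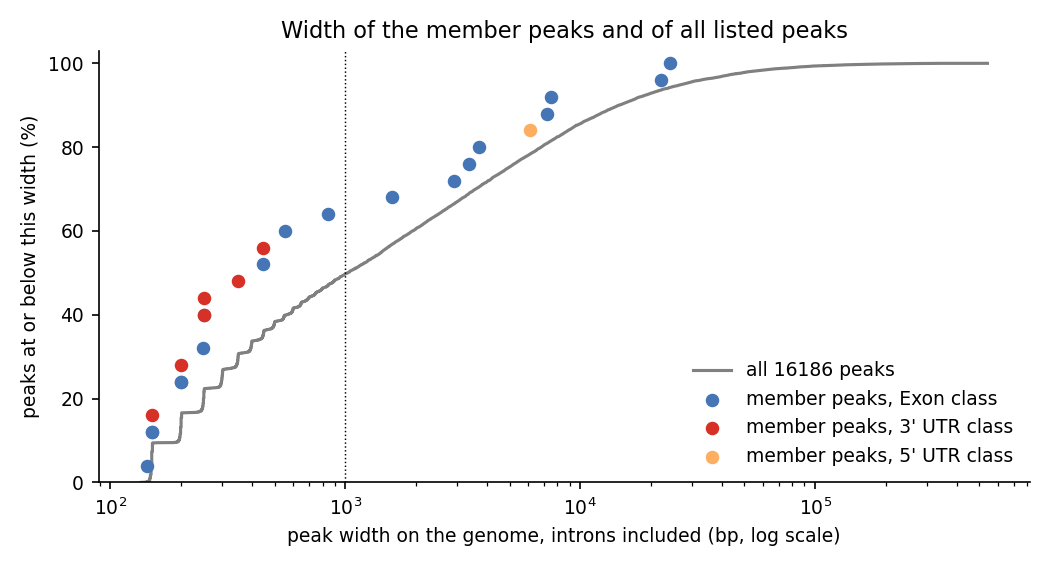
The horizontal axis is peak width in bp on a log scale, and the vertical axis is the share of peaks at or below that width, for all 16186 peaks (grey line) and for the 25 member peaks (points, coloured by class). The dotted line marks 1000 bp; the 6 member peaks in the 3' UTR class all lie below it, at 447 bp or less.

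In 6 identifiers there were both a narrow and a wide peak. In *TDRD5*, *TDRD9* and *PIWIL2* the wide peak was on an internal exon and the narrow ones in the 3' UTR class. Midpoints of 7 peaks (28%, 14.3% to 47.6%) fell in the last 10% of the span or beyond, against 33% of all peaks. They were on *HENMT1*, *PIWIL2*, *PLD6*, *TDRD5*, *TDRD9* and *ASZ1*, and all 7 were narrow. In the first 10% or before it there were 5 (20%, 8.86% to 39.1%), against 11.6% of all peaks. Those 5 were on *ASZ1*, *TDRD6*, *HENMT1* ENSBGRG00000000419 and *TDRD3* ENSBGRG00000006779, whose listed terms go against its symbol. They include the 5' UTR class peak inside the span of ENSBGRG00000000439 and the *TDRD6* peak 7467 bp before the transcript, so the gene of several is in doubt. Among the exon class, 3 of 18 peaks were in the last exon (16.7%, against 18.2%) and 4 in the first (22.2%, against 18.4%).

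Expression was measured as FPKM, a read level scaled to transcript length and library size, in the input library of each animal. All 12 identifiers reached 1 FPKM in each of the animals, against 86.9% of the 8775 genes with a peak and an FPKM, and 54.4% of all 20953 genes. Mean FPKM ran from 1.65 to 16.6, a 10.1-fold range. The median over the 12 was 8.49, against 7.36 for genes with a peak and 2.11 for all genes, so the level of the group was near that of other genes with a peak.

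The identifier with the symbol *PLD6*, whose listed terms go against that symbol, and *PIWIL2* had the highest levels. The *PLD6* identifier had an FPKM of 16.6 in TES5, 15.0 in TES6 and 18.2 in TES7, a mean of 16.6 ± 1.59 (SD, n = 3). *PIWIL2* was at 14.6, 17.1 and 17.1 in the same order, a mean of 16.3 ± 1.41 (SD, n = 3). The values of the pair overlapped, and the *PLD6* identifier was the higher one in 2 of 3 animals. They stood at percentiles 82.7 and 82.3 of all genes.

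*TDRD7* and *TDRD9* came next. *TDRD7* had an FPKM of 15.0, 14.2 and 10.5 in TES5, TES6 and TES7, a mean of 13.2 ± 2.42 (SD, n = 3). *TDRD9* was at 14.0, 13.1 and 10.4, a mean of 12.5 ± 1.87 (SD, n = 3). In both, TES7 was the low animal, and *TDRD7* exceeded *TDRD9* in 3 of 3 animals although their values overlapped.

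*TDRD5*, *TDRD1* and *ASZ1* had close means and different spreads. *TDRD5* was at 11.3 in TES5, 11.0 in TES6 and 4.37 in TES7, a mean of 8.89 ± 3.92 (SD, n = 3). *TDRD1* was at 8.81, 10.8 and 6.51, a mean of 8.72 ± 2.16 (SD, n = 3). *ASZ1* was at 8.26, 9.79 and 6.76, a mean of 8.27 ± 1.52 (SD, n = 3). The 3 genes overlapped in their values, with *TDRD5* above *ASZ1* in TES5 and TES6 and below it in TES7.

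*TDRD3* and *HENMT1* were lower. *TDRD3* (ENSBGRG00000006592) had an FPKM of 6.19, 4.88 and 5.46, a mean of 5.51 ± 0.659 (SD, n = 3). *HENMT1* ENSBGRG00000000419 had 2.85, 3.15 and 2.85, a mean of 2.95 ± 0.171 (SD, n = 3), with the smallest coefficient of variation of the group, 5.79%. The identifier ENSBGRG00000000439 beside it was at 5.33, 5.70 and 4.69, a mean of 5.24 ± 0.510 (SD, n = 3), above ENSBGRG00000000419 in 3 of 3 animals and without overlap.

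*TDRD6* combined the most peaks with a low level. Its FPKM was 2.72 in TES5, 2.35 in TES6 and 1.25 in TES7, a mean of 2.11 ± 0.764 (SD, n = 3), near the median of all genes (percentile 50.0). The lowest mean was that of *TDRD3* ENSBGRG00000006779, with 1.40, 2.32 and 1.21, a mean of 1.65 ± 0.592 (SD, n = 3).

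**Figure D3:**
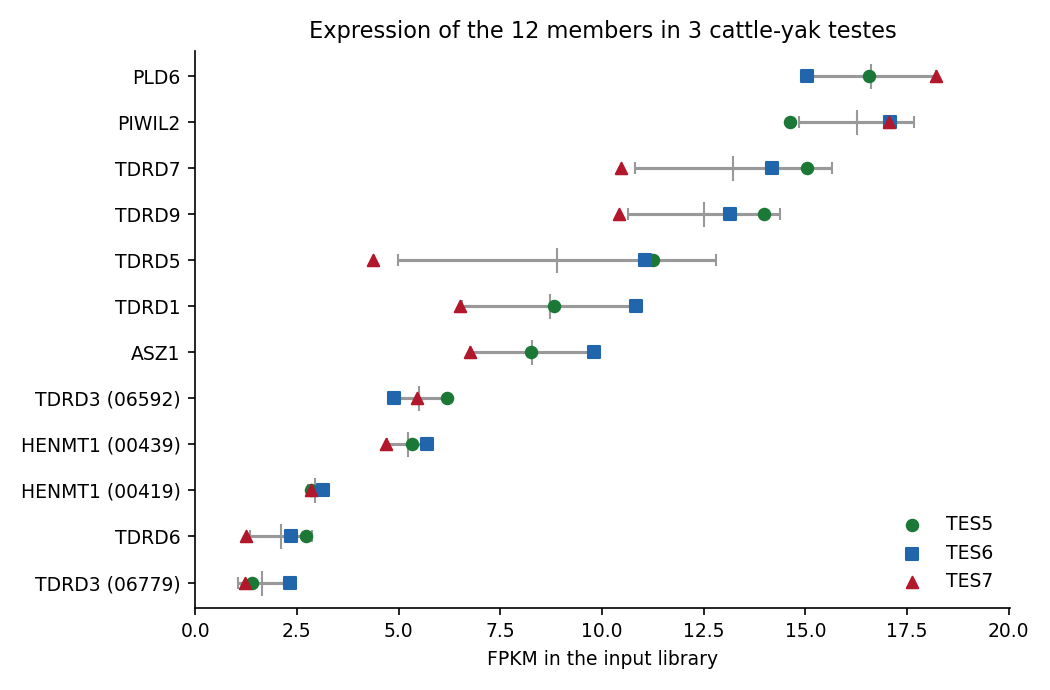
FPKM in the input library (horizontal axis) of each of the 12 identifiers, ordered by mean, with 1 point per animal, and a grey bar for the mean ± SD over the 3 animals (digits in brackets are the last of the identifier). The *PLD6* identifier, whose gene was not tested, and *PIWIL2* are highest, at means of 16.6 and 16.3. *TDRD5* has the widest spread, with TES7 at 4.37 against 11.3 and 11.0.

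In the order of the means, 8 of the 11 neighbouring pairs overlapped in their values over the animals. The 3 that did not were *ASZ1* above *TDRD3*, the 2 *HENMT1* identifiers, and *HENMT1* ENSBGRG00000000419 above *TDRD6*. With 3 values against 3, the smallest two-sided p of an unpaired exact permutation test is 0.1, so no pair could pass 0.05 in it. It leaves aside that both genes of a pair were read in the same animals.

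The animal with the lowest value was most often TES7. Of the 12 identifiers, 8 (66.7%) had their lowest FPKM in TES7. The share was 32.3% over the 15574 genes above 0 in every library. Over the 7629 genes with a peak and at least 1 FPKM throughout it was 28%. The lowest value was in TES5 for 2 and in TES6 for 2 (16.7% each, against 36.9% and 30.7%). Genes read in the same libraries are not independent, and TES7 was named from these same values, so no interval is given. The highest value was in TES5 for 5 (41.7%, against 38.8%) and in TES6 for 6 (50%, against 29.5%). It was in TES7 for 1, the *PLD6* identifier (8.33%, against 31.6%). All 5 Tudor genes of the germline granules, *TDRD1*, *TDRD5*, *TDRD6*, *TDRD7* and *TDRD9*, were lowest in TES7, and so was *ASZ1*. *PIWIL2* was not. These genes are part of the same 8 and were grouped with the values known. The remaining Tudor symbol, *TDRD3*, was lowest in TES6 for ENSBGRG00000006592 (4.88) and in TES7 for ENSBGRG00000006779 (1.21).

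On the scale of log2(FPKM + 1), the difference of TES7 from the mean of TES5 and TES6 had a median of -0.35 over the 12 identifiers, against 0.01 over all genes that reach 1 FPKM in each library. The difference was largest for *TDRD5* (-1.18), which in TES7 had 39.2% of the mean FPKM of TES5 and TES6. It was -0.65 for *TDRD6* (49.3%), -0.52 for *TDRD1* (66.3%) and -0.44 for *TDRD7* (71.7%). At the other end stood *PIWIL2* at 0.10 and the *PLD6* identifier at 0.20. The lowest value was in TES7 for 6 of 9 without the 3 identifiers with terms of splicing, deubiquitination or TOR signaling, and for 3 of 5 without the 4 with the polymerase term as well. The labels give the animals no property that sets them apart, so no test between them was made.

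**Figure D4:**
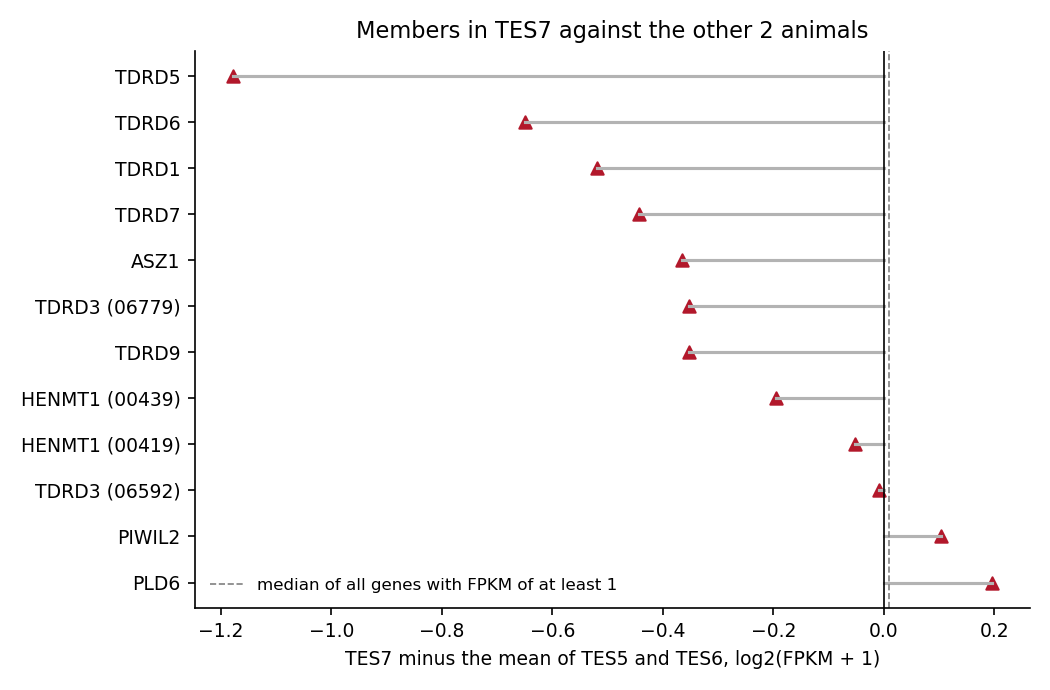
Difference between TES7 and the mean of TES5 and TES6 on log2(FPKM + 1) for each of the 12 identifiers, with the median of all genes that reach 1 FPKM as a dashed line at 0.01. All but 2 identifiers lie below 0, *TDRD5* lowest at -1.18, and *PIWIL2* and the *PLD6* identifier lie above it.

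The coefficient of variation over the animals had a median of 16.6% over the 12. Over the 11402 genes that reach 1 FPKM in each library it was 12.2%. *TDRD5* had the largest value of the 12, 44.0%, which 2.77% of the 11402 genes reached or passed. That share is for a single gene and makes no allowance for picking the largest of 12.

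Markers of cell types were read from the same libraries where a peak gave them a symbol. In bulk tissue, fewer cells of a type and less RNA per cell cannot be told apart. Of 7 spermatogonium markers, 3 could be read (*ZBTB16*, *KIT* and *GFRA1*), and their summed FPKM was 15.8 in TES5, 18.9 in TES6 and 24.2 in TES7, so the sum was highest in TES7. *ZBTB16* and *KIT* were highest there too, while *GFRA1*, under 1 FPKM, was highest in TES6 (0.572, 0.936 and 0.863). Of 9 spermatocyte markers, 5 could be read, on 10 identifiers, with sums of 68.4, 45.7 and 50.6, and 1 *SYCP2* identifier was listed at 0 in every library. The lowest value was in TES7 for 4 of the 10, in TES6 for 4, and the *SYCP2* identifier ENSBGRG00000024759 was at 7.32, 6.14 and 3.69. The spermatid list was read from *TSSK1B* only, 1 of 8, with sums of 16.0, 14.4 and 12.9. Sertoli cell markers summed to 73.4, 86.2 and 80.8, from 4 of 8. Macrophage and endothelium markers, 4 of 4, summed to 13.3, 14.4 and 14.0, but 3 of them (*VWF*, *PECAM1* and *CD68*) were lowest in TES7 and *CD163* was highest there, with a median TES7 difference of -0.29. Peritubular myoid markers, 4 of 4, summed to 355.8, 405.0 and 383.4. *STAR*, the 1 of 6 Leydig cell markers read, was at 100.2, 107.7 and 111.9. The part of cell makeup in the differences between animals was not tested.

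Other genes of the pathway were read by the same peak list. Of 21 further piRNA pathway genes, 8 carried a peak (38.1%, against 45.2% of all named protein coding symbols), 26 peaks in all. *TEX15*, which works with PIWI proteins in transposon silencing in fetal germ cells, had 7 peaks, all in the exon class, at an FPKM of 4.42, 3.87 and 5.16. *STK31* and *RNF17*, both with a Tudor domain, had 4 and 3 peaks in the exon class. *RNF17* was at 13.3, 11.8 and 8.02, and *STK31* at 18.3, 14.5 and 12.7, both lowest in TES7. *SND1* and *AKAP1*, which also hold a Tudor domain, were highest in TES7, at 61.2, 70.0 and 77.0 and at 15.4, 13.0 and 15.4. *RNF17* and *STK31* were the 2 of these 8 genes with their lowest value in TES7, while the median TES7 difference of the 8 was 0.16.

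Of 25 further germline RNA regulators, 13 carried a peak (52%, against 45.2%), on 15 identifiers. The lowest value was in TES7 for 7 of the 15, against 28% to 32.3% of the genes compared above, and the median TES7 difference was -0.05. *ADAD1*, a germ cell RNA-binding protein, was at an FPKM of 38.9, 19.9 and 13.0, and *RBM46*, needed for entry into meiosis, at 7.08, 6.24 and 4.39. *YTHDC2*, an m6A reader that germ cells need for meiosis, hardly varied, at 8.83, 8.63 and 8.54, and its partner *MEIOC* was at 10.5, 8.22 and 8.90. *NANOS3*, a regulator of early germ cells, was at 8.44, 6.75 and 9.02, with 2 peaks in the 5' UTR class.

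**Figure D5:**
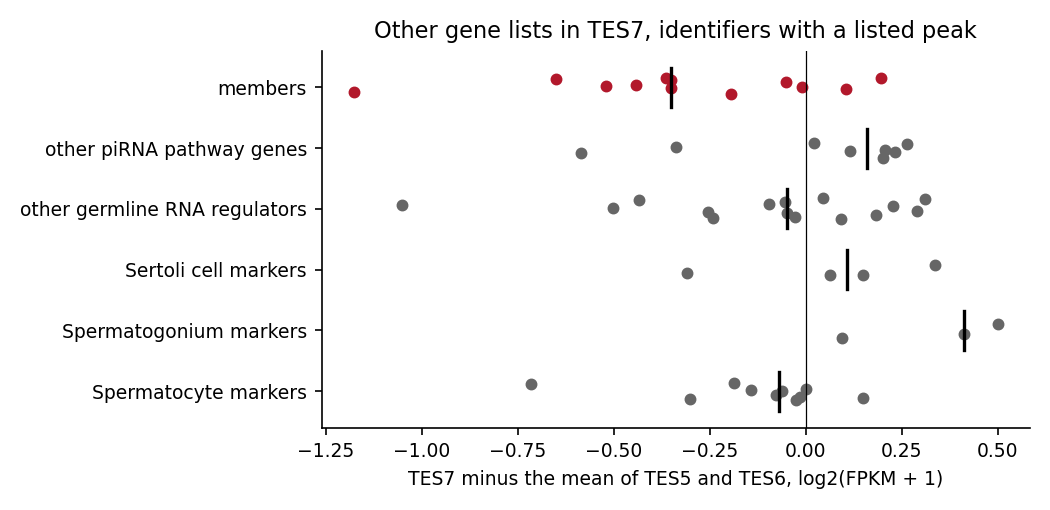
Difference between TES7 and the mean of TES5 and TES6 on log2(FPKM + 1), 1 point per identifier with a listed peak, for the 12 members (red) and for 5 other lists (grey), with the median of each list as a black line (vertical scatter within a row has no meaning). The medians are -0.35 for the 12 members, 0.16 for 8 other piRNA pathway genes and -0.05 for 15 identifiers of other germline RNA regulators. Among marker identifiers they are 0.41 for 3 of spermatogonia, -0.07 for 10 of spermatocytes and 0.11 for 4 of Sertoli cells.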

How the data were processed

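The authors trimmed reads with Trimmomatic, removed ribosomal RNA with SortMeRNA, aligned to LU_Bosgru_v3.0 (Ensembl release 99) with HISAT2 (version 2.0.4 in the submitters' processing notes), kept unique reads, called peaks per sample with MeTDiff and annotated them with ChIPseeker. They deposited 1 list of peak positions for the group, and how samples were joined in it is not given in the sources used here. They also deposited FPKM values of the 3 input libraries; the program behind the FPKM is not given in the sources used here. Values of single IP libraries were not used here. The FPKM values showed no steps of whole reads (of 84 genes under 0.05 in every library, at most 2 shared a TES5 to TES6 ratio), so depth could not be read from them and no detection limit was set. The paper reports the amount of clean data and the alignment rates of its samples, which were not used here.

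Here peaks were counted per identifier, class and width, with Wilson 95% intervals, and mean, SD and differences on log2(FPKM + 1) were computed. No test was made between groups, since there is 1 condition. Members, gene lists and the genes named (every member, and list genes with a peak) were chosen with earlier results of these data known. Symbols came from the peak list and the count of symbols without a peak from a RefSeq table of assembly Bosgru_T2T1.0, used for names and neighbours only. No sequence is printed, as none of this build was used here. The analysis used Python 3.11.15 (pandas 2.3.3, numpy 2.4.6; intervals with SciPy 1.17.1, plots with matplotlib 3.10.9), and the counting and interval steps were tested on simulated data. Alternatives were merging within 100 bp, other gene units, width limits and weights, another minimum FPKM (0.5) or pseudocount (0.1), rescaled libraries and each animal left out.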

Additional observations from a re-analysis of the deposited data

How the results depend on the processing

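In all, 4 values moved. Weighted by width, the 3' UTR class held 1.98% of the members' peak length and the exon class 90.7%, because the wide peaks are in the exon class. Without the 3 identifiers with terms of splicing, deubiquitination or TOR signaling, 88.9% of identifiers had 2 or more peaks, since each of the 3 has 1 peak. That share still counts for ENSBGRG00000000419 the peak inside the span of the removed ENSBGRG00000000439. Without these 3 and the 4 with RNA-directed DNA polymerase activity, 3 of the 5 identifiers left were lowest in TES7, a smaller count because fewer are counted. Both sets were chosen after seeing the data. The other 36 alternative values of the group stayed within 1.5 times the count or within the interval or SD of the value, but several of them could not move. All 12 identifiers reach 1 FPKM in every library. A filter at 1 FPKM therefore removes none, and a lower minimum, the mean over animals or a dropped animal cannot change the count of 12. The number lowest in TES7 was 8 after both rescalings, but their factors were so near 1 that this is a weak check. The median of mean FPKM ran from 7.59 to 9.42 with an animal left out. The mean FPKM of each identifier stayed within its SD in 60 of 60 alternatives, but an average of 3 values stays within its SD whichever one is dropped, and rescaling factors lay between 0.958 and 1.03, so these say little about stability. With 12 genes and 25 peaks the intervals of all shares are wide. No paired analysis was possible because peaks are pooled over the animals and the FPKM values cover the input libraries only.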

Other observations

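Neighbouring peaks stood at a similar distance in 3 places. The gap was 98 bp between the 845 bp and 150 bp peaks of *TDRD6*, 99 bp between both 3' UTR class peaks of *PIWIL2*, and 98 bp between the 6131 bp and 445 bp peaks at the *HENMT1* identifiers, 3 of the 14 neighbouring pairs of member peaks. In the whole list, 757 of 15975 neighbouring pairs (4.74%) had a gap of 90 to 110 bp, and 9 had one under 90 bp. The 14 pairs lie within an identifier or between the overlapping *HENMT1* identifiers. The 15975 also hold neighbours on different genes at any distance, so the shares are of unlike pairs and cannot be compared.

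Germline terms were listed for 2 of the 12 identifiers, *TDRD6* and *TDRD7*, both with spermatogenesis, a term found on 1.33% of the 7944 genes that carry a peak and any term. *TDRD6* also carries the chromatoid body, as 5 genes in all do. Another 4 identifiers, those of *ASZ1*, *TDRD5*, *TDRD9* and *TDRD3* (ENSBGRG00000006592), are listed with RNA-directed DNA polymerase activity, the reverse transcriptase term of retrotransposons, against 16.7% of all genes with a peak and a term.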
